A study of Caenorhabditis elegans with 2 samples.

Results

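The genes for the initiation and elongation factors of cytoplasmic translation were examined as locations of MBF-1 ChIP-seq signal in Caenorhabditis elegans larvae. Membership went by name alone: every nuclear protein-coding gene whose name begins eif-, eef-, ife-, iff-, ifg- or ifet- in Ensembl release 115 was taken, which gave 40 of 19973 genes. The rule uses names and no measured value. MBF-1 was profiled in whole, mixed-sex L2 larvae of strain OP427, which carries unc-119(ed3) and the integrated transgene wgIs427. This line stably produces MBF-1 fused at its C-terminus to GFP-FLAG. The 2 biological replicates form the only group, every animal carries the mutation and the transgene, and no untagged or untreated animals enter a comparison. A single transgenic line was used, and a signal from whole larvae averages over all of their tissues.

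MBF-1 belongs to the multiprotein bridging factor family, coactivators that in yeast connect the activator Gcn4 to the TATA-binding protein, and the yeast and mammalian proteins are also known from ribosomes. Initiation factors bring the initiator tRNA, the mRNA cap and the small ribosomal subunit together and find the start codon, and elongation factors then deliver aminoacyl-tRNAs and move the ribosome along the message. In C. elegans many mRNAs receive a spliced leader by trans-splicing, so that the annotated start of such a gene is a splice acceptor and its promoter lies further upstream.

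For each gene, the highest signal value was read among candidate regions whose summit lay within 500 bp of the annotated start. This was done in the list called on the pooled replicates (30000 regions) and in the lists of replicate 1 (19135 regions) and replicate 2 (23203 regions). All coding starts were then ranked, and a rank is given as a percentage of the 19973 starts counted from the top. The signal is the authors' own value per region on a scale that is not stated, so it was compared within a list only. The candidate lists were made to include background, so presence in one was not taken as binding. A shorter list of 132 peaks, 111 of them nuclear, was selected by the irreproducible discovery rate (IDR), which scores how well replicates rank the same regions. The read depth behind the lists is unknown here.

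The sequences that follow show what lay under strong regions at these genes. They cover 151 bp of WBcel235 centred on the pooled summit at 6 of the 10 members of highest pooled signal, read 5′ to 3′ on the strand of the gene. The windows of the other 4, eif-3.C, eef-2, eif-2Bbeta and eif-3.I, are not printed here. Capitals mark the letters GAGAGA (or TCTCTC, the same run on the other strand), TATAAA (the core of a TATA box) and TTTCAG (the form of a worm splice acceptor). The window of ifet-1 is chrIII:4475566-4475716 on the minus strand, that of iff-2 is chrII:8561318-8561468 on the minus strand, and that of ife-3 is chrV:7870-8020 on the minus strand. The window of eef-1B.2 is chrIV:15037046-15037196 on the plus strand, that of eif-2Bgamma is chrII:6967634-6967784 on the minus strand, and that of eef-1G is chrV:10965626-10965776 on the plus strand.
ifet-1: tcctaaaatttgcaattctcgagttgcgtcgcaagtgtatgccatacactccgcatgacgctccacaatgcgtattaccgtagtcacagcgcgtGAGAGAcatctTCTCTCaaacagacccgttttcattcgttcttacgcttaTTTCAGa
iff-2: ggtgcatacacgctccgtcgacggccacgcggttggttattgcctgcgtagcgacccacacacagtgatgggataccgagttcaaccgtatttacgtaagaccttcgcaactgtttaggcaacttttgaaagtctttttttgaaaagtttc
ife-3: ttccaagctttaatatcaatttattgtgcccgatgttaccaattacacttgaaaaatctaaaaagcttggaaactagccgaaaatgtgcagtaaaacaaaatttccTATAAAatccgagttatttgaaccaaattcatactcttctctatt
eef-1B.2: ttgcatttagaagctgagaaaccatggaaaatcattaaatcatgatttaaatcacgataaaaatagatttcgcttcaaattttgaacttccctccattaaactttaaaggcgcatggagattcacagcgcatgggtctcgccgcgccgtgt
eif-2Bgamma: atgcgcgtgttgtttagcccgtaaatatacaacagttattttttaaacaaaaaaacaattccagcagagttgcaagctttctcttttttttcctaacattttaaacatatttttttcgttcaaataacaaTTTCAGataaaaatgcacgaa
eef-1G: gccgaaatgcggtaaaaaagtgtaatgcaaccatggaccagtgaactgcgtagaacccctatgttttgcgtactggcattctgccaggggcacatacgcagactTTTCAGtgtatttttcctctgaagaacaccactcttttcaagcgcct

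The 6 windows differed in composition, and none of the runs searched was present in all of them. G+C was 48.3% in the window of iff-2, 47.0% in that of eef-1G and 45.7% in that of ifet-1, against 28.5% in that of eif-2Bgamma and 30.5% in that of ife-3. The window of eef-1B.2 lay between them at 39.1%. The windows of iff-2 and eef-1B.2 held none of the letters searched. The TTTCAG run of eif-2Bgamma ends directly before the annotated start of that gene.

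A pooled candidate region lay at the start of 26 of the 40 members (65.0%), against 31.0% of all coding starts. In replicate 1 a region was present at 15 members (37.5%), against 20.1% of all coding starts, and in replicate 2 at 22 members (55.0%), against 25.5%. Regions in both replicate lists were found at 13 members (32.5%), against 8.84% of all coding starts. The members thus exceeded the background in each list, by more percentage points in the pooled list and in replicate 2 than in replicate 1. These shares are descriptions: the 26 regions are distinct, but neighbouring genes can share a region, and no test was run over genes.

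High ranks were also more frequent among the members. By pooled signal 14 of 40 members (35.0%) stood in the top 10% of coding starts, by replicate 1 signal 12 (30.0%) and by replicate 2 signal 13 (32.5%). In both replicates at once 7 members (17.5%) stood in the top 10%, against 2.94% of all coding starts. These were eif-3.C, iff-2, eef-2, eif-2Bbeta, eif-2Bgamma, eef-1G and eif-3.J, and 6 of them, all but eif-3.J, also stood there by pooled signal. An IDR peak lay at 2 members (5.0%), ifet-1 and eif-3.C, against 0.295% of all coding starts, or 59 genes. The lowest pooled signal in the top 10% was 24.6. Just inside it was eif-1.A at 24.9 and just outside it eif-6 at 24.3. In the replicates the top 10% reached down to near the middle of the regions at coding starts. Its lowest signal was 14.2 in replicate 1, where the median over coding starts with a region was also 14.2. In replicate 2 it was 14.5, against a median of 13.4. The median member ranked at 15.2%, whereas the median coding start had no region and so shared the last rank, at 31.0%. In replicate 1 alone the median member had no region either, so the medians were equal there.

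**Figure D1:**
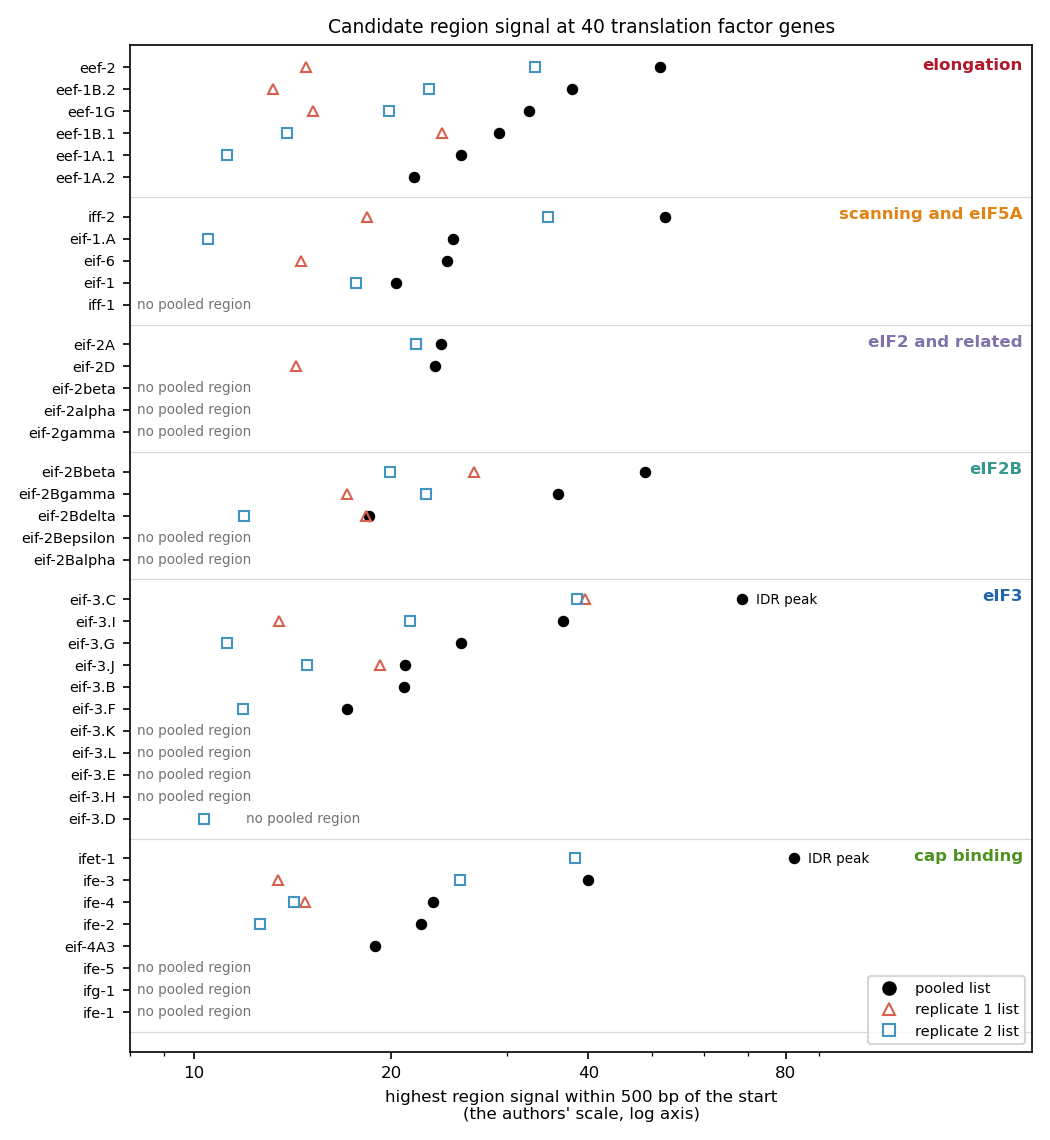
Highest candidate region signal within 500 bp of the start of each of the 40 genes (horizontal log axis, the authors' scale), grouped by role, in the pooled list (black circles), replicate 1 (red triangles) and replicate 2 (blue squares). All 6 elongation genes have a pooled region, the 3 eIF2 subunit genes have none, and the highest value is 82.3 at ifet-1. Of all coding starts, 31.0% have a pooled region.

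**Figure D2:**
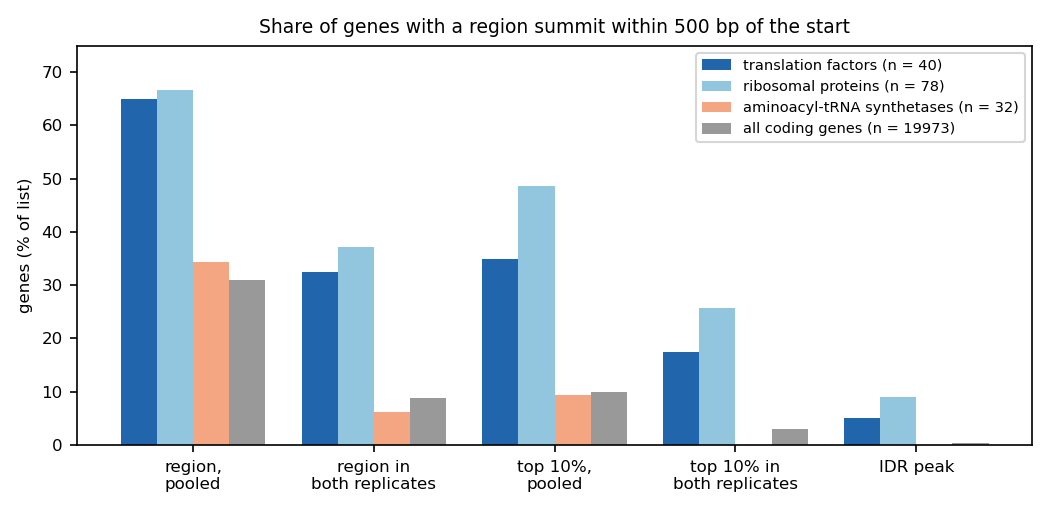
Share of genes in percent with a region, in the top 10%, or at an IDR peak, for the 40 members (dark blue), 78 ribosomal protein genes (light blue), 32 aminoacyl-tRNA synthetase genes (orange) and all coding starts (grey). The members lie near the ribosomal protein genes for a pooled region (65.0% and 66.7%) and above all coding starts (31.0%).

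Elongation factor genes all had a pooled region, against 31.0% of all coding starts, but not all had one in both replicates. Of the 6, 5 stood in the top 10% by pooled signal. Regions in both replicate lists were present at 4 (66.7%), against 8.84% of all coding starts. In the top 10% of both replicates there were 2 (33.3%), against 2.94%. The highest was eef-2, the gene for the GTPase that moves the ribosome one codon on. Its pooled signal was 51.5, rank 92 of all coding starts, with 14.9 in replicate 1 and 33.2 in replicate 2. The start ranked at 8.53% in replicate 1 and at 0.320% in replicate 2, so it was in the top 10% of both and ranked higher in replicate 2. The pooled summit lay 2 bp into the gene, in the 5′ UTR, at position 9163533 of chromosome I.

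The genes of the eEF1B complex, which reloads the tRNA carrier eEF1A with GTP, followed. eef-1B.2 had 37.7 pooled, 13.2 in replicate 1 and 22.8 in replicate 2, with a summit 210 bp upstream of the start in all 3. Its rank was 12.2% in replicate 1 and 1.59% in replicate 2, one of the 3 largest rank differences among the 13 members with a region in both replicates. eef-1G, for the gamma subunit, had 32.4, 15.2 and 19.8 pooled, in replicate 1 and in replicate 2, and the pooled summit lay 18 bp upstream. eef-1B.1 went the other way, with 29.2 pooled, 23.9 in replicate 1 and 13.9 in replicate 2. Its pooled summit lay 250 bp inside the gene in an intron. The summit in replicate 2 lay 247 bp inside the gene, whereas that in replicate 1 lay only 58 bp inside it.

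The eEF1A genes themselves, for the GTPase that carries aminoacyl-tRNAs to the ribosome, were weaker. eef-1A.1 had 25.6 in the pooled list and 11.2 in replicate 2, with no region at the start in replicate 1. Its summit lay 316 bp upstream, 225 bp from the start of the neighbouring rfc-4, which encodes a subunit of the clamp loader of DNA replication, and 57 bp from that of the microRNA gene cel-mir-5549. eef-1A.2 had 21.7 in the pooled list and no region in either replicate list.

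Among factors of scanning, subunit joining and eIF5A, 4 of 5 genes had a pooled region and 2 of 5 stood in the top 10%. Of all coding starts, 31.0% had a pooled region. iff-2, which encodes the eIF5A of the soma, had 52.4 pooled, rank 83, with 18.4 in replicate 1 and 34.7 in replicate 2. The pooled and replicate 2 summits lay 26 bp upstream of the start, whereas the summit in replicate 1 lay 331 bp upstream. iff-1, its germline paralog, had no region in any list, and the nearest pooled summit was 3052 bp away. By pooled signal iff-2 ranked at 0.416%, whereas iff-1 shared the last rank, at 31.0%, with all starts that had no region. The median coding start shared that rank too. eif-1.A, for the factor that assists scanning, had 24.9 in the pooled list and 10.5 in replicate 2. eif-6, which keeps the large subunit from joining early, had 24.3 in the pooled list and 14.6 in replicate 1, and eif-1, for a start codon selection factor, had 20.3 in the pooled list and 17.7 in replicate 2.

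The 3 genes of eIF2 itself, the complex that brings the initiator tRNA, had no region at the start in any list. In the pooled list 31.0% of all coding starts had one, so most coding starts had none. For eif-2alpha, eif-2beta and eif-2gamma the nearest pooled summits lay 1614, 3774 and 2773 bp away. The related eif-2A and eif-2D, for factors known from mammals to bring a tRNA to the ribosome by other routes, had pooled signals of 23.8 and 23.3, both below the top 10%. eif-2A also had a region in replicate 2, at 21.8 and rank 1.93%, and none in replicate 1, whereas eif-2D had one in replicate 1, at 14.3, and none in replicate 2.

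eIF2B exchanges the nucleotide on eIF2 and is the step that stress signalling limits. Of its 5 subunit genes, 3 had a pooled region, and the same 3 had one in both replicates. The shares of all coding starts were 31.0% and 8.84%. eif-2Bbeta had 48.7 pooled, rank 124, with 26.8 in replicate 1 and 19.9 in replicate 2. Its summit lay 246 bp upstream but only 42 bp into the neighbouring gene Y47H9C.8, in a 5′ UTR, so the region can belong to either start. eif-2Bgamma had 35.9 pooled, 17.1 in replicate 1 and 22.6 in replicate 2, with its summit 61 bp upstream and the nearest other coding start 2036 bp from it. eif-2Bdelta had only 18.5 in the pooled list, yet 18.3 in replicate 1 and 11.9 in replicate 2. That is a rank of 3.63% in replicate 1 and 17.3% in replicate 2, the largest rank difference between the replicates among members with a region in both. eif-2Balpha and eif-2Bepsilon had no region in any list.

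eIF3 is the large scaffold that holds the small subunit and the other factors. Of the 11 eIF3 subunit genes taken by name, 6 had a pooled region, against 31.0% of all coding starts. Of the 11, 3 stood in the top 10%. eif-3.C, a core subunit, had 68.6 pooled, rank 32, with 39.5 in replicate 1 and 38.4 in replicate 2. It ranked 20 in replicate 1 and 30 in replicate 2 and was the only member in the top 1% of all 3 lists, with an IDR peak. The peak (chromosome I, 9979772 to 9980151) was intergenic, its summit lay 300 bp upstream of the start on the minus strand, and the nearest other coding start was 3647 bp away. eif-3.I had 36.6 pooled, 13.5 in replicate 1 and 21.4 in replicate 2.

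The other eIF3 genes taken by name had lower values or no region. eif-3.G had 25.6 in the pooled list and 11.2 in replicate 2, and eif-3.J, for a loosely bound subunit, had 21.0 pooled, 19.3 in replicate 1 and 14.9 in replicate 2. eif-3.B and eif-3.F had pooled signals of 20.9 and 17.1. eif-3.E, eif-3.H, eif-3.K and eif-3.L had no region in any list, and eif-3.D had one in replicate 2 alone, at 10.4.

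Of the 8 genes grouped with cap binding, 5 had a pooled region and 2 stood in the top 10%. A pooled region lay at 31.0% of all coding starts. The highest value of any member was at ifet-1, the worm relative of the eIF4E transporter, a translational repressor that binds the cap-binding protein. Its pooled signal was 82.3, rank 12 of all coding starts, with 38.1 in replicate 2, and it lay at an IDR peak (chromosome III, 4475451 to 4475830). Replicate 1 counted as having no region at this start, because its overlapping region, at 45.6, had its summit 502 bp upstream, outside the 500 bp window. The pooled summit lay 491 bp upstream, in an exon of the non-coding RNA gene F56F3.11 and 16 bp from its start, and 277 bp from the start of rps-1, which encodes a ribosomal protein. rps-1 therefore carried the same region, and the genes cannot be told apart by position. Without ifet-1, 25 of 39 members (64.1%) had a pooled region, 13 (33.3%) stood in the top 10%, and 1 had an IDR peak.

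Of the 5 eIF4E genes, which encode the cap-binding protein, 3 had a pooled region, against 31.0% of all coding starts. Only ife-3 among them stood in the top 10% by pooled signal. ife-3, for the isoform most like eIF4E of other animals, had 39.9 pooled, 13.5 in replicate 1 and 25.4 in replicate 2, with its summit 117 bp upstream. Its rank was 11.5% in replicate 1 and 0.956% in replicate 2, also one of the 3 largest rank differences among the members with a region in both replicates. ife-4 had 23.2 pooled, 14.8 in replicate 1 and 14.2 in replicate 2, and ife-2 had 22.2 in the pooled list and 12.6 in replicate 2. ife-1, ife-5 and ifg-1, the gene of the eIF4G scaffold that joins cap and small subunit, had no region in any list. eif-4A3, which by name falls here but encodes the helicase of the exon junction complex, had 18.9 in the pooled list and none in the replicates, and its summit lay 132 bp from the start of vps-20, an ESCRT gene.

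None of the 14 members without a pooled region had a summit just outside the window. Their nearest pooled summits lay 717 bp (eif-2Balpha) to 6216 bp (ife-5) away, with a median of 2482.5 bp.

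The replicates did not order the members alike. Of the 26 members with a pooled region, 13 had regions in both replicate lists, 2 in replicate 1 only, 8 in replicate 2 only, and 3 (eef-1A.2, eif-3.B and eif-4A3) in neither. By any overlap with the pooled region, 14 of the 26 (53.8%) had one in both replicates, against 27.4% of the 6192 coding starts with a pooled region. Among the 13 members in both lists, 6 ranked higher in replicate 1 and 7 in replicate 2. Across these 13 genes the signals of the replicates had a Spearman's rho of -0.0824, and across the 1766 coding starts with regions in both lists a rho of 0.251. Both values run across genes of the same 2 libraries, and neighbouring genes share regions. Among these 13 members eif-3.C had the best rank in both lists. ifet-1 is not among them and counts above as replicate 2 only, because its replicate 1 summit lay 502 bp upstream. Its overlapping regions were strong in both lists, at 45.6 in replicate 1 and 38.1 in replicate 2. The rho of the members thus depends on the window, and a rho with ifet-1 was not computed.

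**Figure D3:**
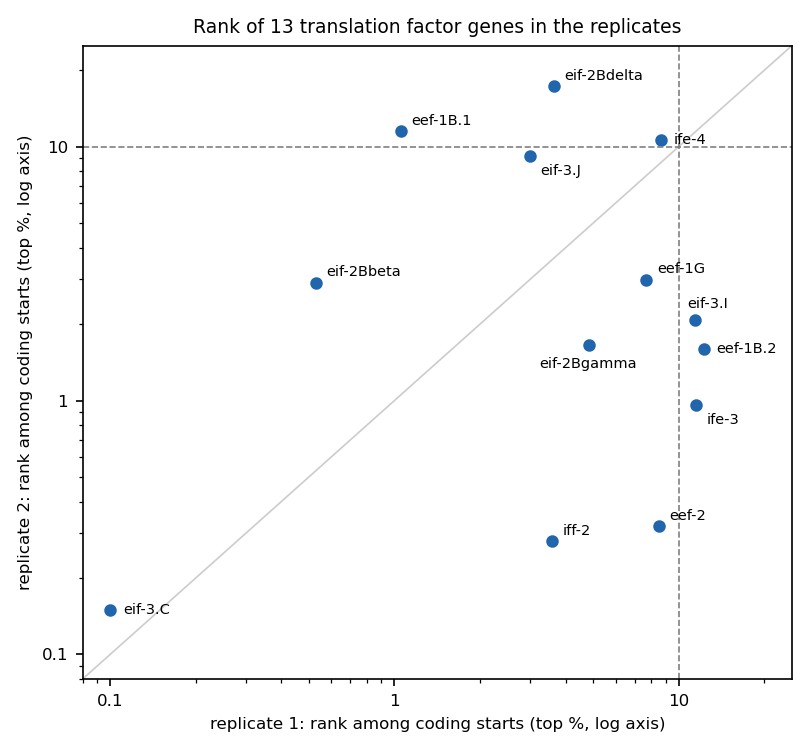
Rank among coding starts in replicate 1 (horizontal) and replicate 2 (vertical) of the 13 members with a region at the start in both lists, in percent from the top on log axes, with dashed lines at the top 10% and a grey line at equal rank. eif-3.C lies lowest on both axes, at rank 20 in replicate 1 and 30 in replicate 2, 7 genes lie below the line of equal rank and 6 above it.

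The regions lay upstream of the genes more often than at coding starts in general. The pooled summit was upstream of the annotated start at 23 of the 26 members (88.5%), against 61.9% of the 6192 coding starts with a region, and the exceptions were eef-2, eef-1B.1 and eif-2D. Ribosomal protein genes had the same share, at 46 of 52 (88.5%). The median distance to the start was 219.5 bp for the members and 246 bp for all coding starts with a region. By annotation 19 summits were intergenic, 2 lay in a 5′ UTR, 2 in a non-coding exon, and 1 each in a 3′ UTR, a coding exon and an intron. At 4 members (15.4%), ifet-1, eif-2Bbeta, eef-1A.1 and eif-4A3, the summit was nearer to the start of another coding gene, against 7.78% of all coding starts with a region. That share differed between the replicates. By the summits of replicate 2 it was 31.8% of the members with a region, against 8.52% of all such starts, and by those of replicate 1 it was 6.67%, against 7.66%. At other members the summit was nearest to their own start but lay within 500 bp of another coding start as well. These were eef-1G (162 bp from ctf-4), eif-3.I (256 bp from abtm-1), eif-1 (265 bp from vps-24) and eef-2 (267 bp from clsp-1). Farther off were eif-2D (397 bp from ndub-5), eif-1.A (488 bp from H06H21.37) and eif-6 (494 bp from pbs-2). The same share of all coding starts was not counted. At eef-1B.1 and eef-1A.2, as at ifet-1 and eef-1A.1, the start of a non-coding gene was nearer than their own. The eef-1B.1 summit lay 191 bp from F54H12.9, against 250 bp from its own start. The eef-1A.2 summit lay 248 bp from R03G5.8, against 377 bp. At all of these genes a region may mark the neighbour, and the assignment to the factor gene rests on distance alone.

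**Figure D4:**
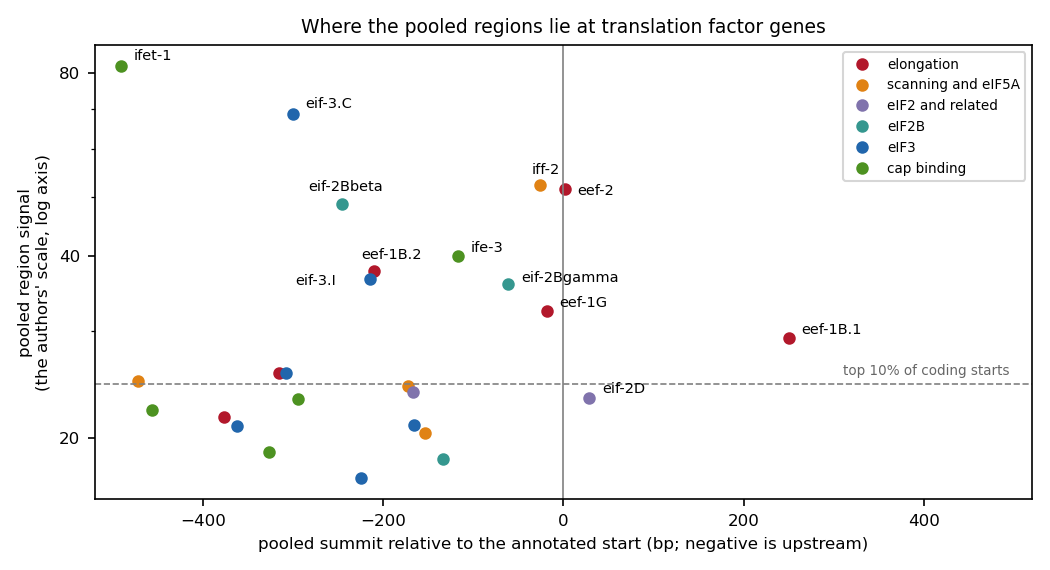
Position of the pooled summit relative to the annotated start in bp (horizontal, negative is upstream) and pooled signal (vertical log axis, the authors' scale) for the 26 members with a region, coloured by role, with a dashed line at the lowest signal of the top 10%. Summits lie upstream at 23 genes, and ifet-1 has the highest signal near the edge of the window, 491 bp upstream.

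The letters of a splice acceptor stood before the starts of the members more often than before coding starts in general. The letters TTNCAG stood directly before the annotated start of 20 of 40 members (50%), against 19.0% of all coding starts. With a pooled region the share was 14 of 26 members (53.8%), against 23.1% of all such starts, and without one it was 6 of 14 (42.9%), against 17.1%. The share was above that of all coding starts with and without a region. Such a start has the form of a trans-splice site, and where it is one, the distances above run to that site and not to the point where transcription begins.

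Other motif letters were searched on both strands within 100 bp of the pooled summits of the 26 members and of all 6192 coding starts with a region. GAGAGA was present at 8 members (30.8%), against 11.1%. In the promoter window, 250 bp before to 50 bp after the start, it was present at 6 of 40 members (15%), against 21.8% of all coding starts, so the excess at summits was not found in that window. TATAAA was present at the summits of 7 members (26.9%), against 29.1%, and in the promoter window of 18 members (45.0%), against 37.9%. TGACTCA, the site known for yeast Gcn4, was at 0 of 26 member summits, against 1.82%, and in the promoter windows of 2 of 40 members, eif-2Balpha and eif-3.E (5.0%), against 3.62%. TTTCAG was at 10 summits (38.5%), against 36.8%, and in 25 promoter windows (62.5%), against 51.7%. It overlaps the TTNCAG letters counted above. Median G+C within 100 bp of the summit was 34.6% for the members, with a range of 27.9% to 51.2%, and 31.8% for all coding starts with a region. These matches are runs of letters and not shown binding sites.

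The members were set beside other genes of protein synthesis. Among 78 ribosomal protein genes 52 (66.7%) had a pooled region, 38 (48.7%) stood in the top 10%, 20 (25.6%) did so in both replicates, and 7 (8.97%) had an IDR peak. The members' share with a region was close to that, and their shares of high ranks were lower. Of 32 aminoacyl-tRNA synthetase genes, whose enzymes charge the tRNAs, 11 (34.4%) had a pooled region, 3 (9.38%) stood in the top 10%, and none had an IDR peak. These shares lay near the 31.0% and 10% of all coding starts. Of 8 genes of the cct chaperonin, which folds actin and tubulin, 4 (50%) had a pooled region and 2 (25%) an IDR peak. The shares of all coding starts were 31.0% and 0.295%. At 2 of the 4 genes the pooled summit was nearer to another coding start, and at 2 no replicate region overlapped the pooled one.

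A further 20 genes outside the name rule were picked by hand as linked to translation. They include mitochondrial factors and signalling genes, so their shares are not those of translation factors alone. Of the 20 genes, 8 (40%) had a pooled region, against 31.0% of all coding starts, and 5 (25%) stood in the top 10% by pooled signal. None stood in the top 10% of both replicates, against 2.94% of all coding starts. The highest was erfa-3, for the release factor eRF3, at 38.4 in the pooled list and 23.1 in replicate 2, with its summit 492 bp inside the gene and no region in replicate 1. It was followed by tufm-1, a mitochondrial elongation factor gene, at 31.0, by the poly(A)-binding protein genes pab-1 and pab-2 at 30.5 and 27.4, and by inf-1, for the helicase eIF4A, at 25.7. daf-15 and let-363, which encode Raptor and TOR, had 23.0 and 17.7. The genes without a pooled region numbered 12, among them gcn-1, gcn-2 and pek-1, which act in the stress pathway to eIF2, and rsks-1, which encodes S6 kinase.

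By chromosome, a pooled region was present at 7 of 12 members of I, against 32.9% of all coding starts there, and at 8 of 12 members of II, against 27.4%. It was present at 3 of 7 members of III, against 36.1%, and at 2 of 2 members of IV, against 32.3%. On V it was present at 3 of 4 members, against 29.4%, and on X at 3 of 3, against 30.0%. The X-linked members, ife-2, ife-4 and eef-1A.2, had pooled signals of 21.7 to 23.2, and 0 of the 3 stood in the top 10% by that signal, against 9.45% of all X-linked coding starts. By replicate 1 signal ife-4 stood in the top 10%, at 8.63%.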

How the data were processed

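The authors profiled tagged MBF-1 by ChIP-seq in 2 biological replicates of L2 larvae. Per the labels' accompanying file lists, the authors called candidate regions per replicate and on both replicates together, each against a control alignment, and derived the IDR list from these. The aligner, caller and settings were not given in the sources used here. Each region has the authors' deposited signal value (column 7), whose scale is not stated. It was used for ranks within a list, read depth is unknown, and lists in ce10 coordinates were not used here.

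Gene starts came from Ensembl release 115 for WBcel235, which is ce11 under another name, and sequence from the RefSeq copy of that assembly. A region counted for every coding start within 500 bp of its summit. A start's rank was 1 plus the number of starts of higher signal, and starts with no region shared the last rank. Counts of members stand beside the same share of all coding starts, and no test was run. The members, gene lists and motifs were chosen with earlier results of these data known. Genes described in full were those at an IDR peak, the 10 of highest pooled signal, the 3 of largest rank difference among members with a region in both replicates, and the highest of each role group. Other members are given by their values or by name. Alternatives changed the window, the assignment of regions, the threshold and the replicates used. Scripts ran in Python 3.11.15 with numpy 2.4.6, pandas 2.3.3, scipy 1.17.1 and matplotlib 3.10.9, and the assignment of regions to starts was tested on simulated data.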

Additional observations from a re-analysis of the deposited data

How the results depend on the processing

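The count with a pooled region moved most with the window and the replicate. The counts of high ranks moved most with the choice of starts ranked, which also cut the members ranked from 40 to 26. With summits within 200 bp of the start, 13 members had a pooled region against 13.4% of all coding starts, 4 stood in the top 10% of both replicates against 2.28%, and 0 had an IDR peak. The median rank was then 13.4%, the last rank that all starts with no region share, for members and all coding starts alike. Leaving out one replicate gave 15 to 22 members with a region and a median rank of 20.1% to 21.5%. Without replicate 2 the median of 20.1% was again the shared last rank, equal to that of all coding starts, and without replicate 1 it was 21.5% against 25.5%. When only the 6192 starts with a pooled region were ranked, 9 of the 26 members among them stood in the top 10% by pooled signal. The main ranking had 14 of 40, so the count fell with its base and the share hardly changed. In both replicates 2 of the 26 did so, a lower share than the 7 of 40 in the main ranking. It was still above the 2.57% of those starts. In the top 5% of both replicates there were 4 members, against 1.25% of all coding starts. Giving each region to its nearest coding start left 1 member at an IDR peak and a median rank of 18.1% against 28.8%, and by construction no summit nearer to another start. The median rank was 25.4% within 1000 bp, 17.2% with starts of any coding transcript and 19.4% with any overlap, against 49.2%, 34.2% and 39.0% for all coding starts. An alternative added after the data were seen, using replicate regions that overlap the pooled one, put 9 members in the top 10% of both replicates, against 3.58%.

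Of 84 values for the 12 genes described in full, 69 kept their side of the top 10%, 10 left it and 5 entered it. ifet-1, eif-3.C, eif-2Bbeta and eef-1B.2 left it within 200 bp, ifet-1 and eif-2Bbeta with the nearest start, and ifet-1, ife-3, eef-1B.2 and eif-3.I without replicate 2. eif-2Bdelta entered it within 200 bp and without replicate 2, and eif-2A within 200 bp, with the nearest start and without replicate 1. No paired analysis was possible because there is 1 group and no test. Read depth is unknown, so counting error could not be given, and with 2 replicates a missing region in one list does not show that signal is absent.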
